A study of Homo sapiens with 11 samples.

Results

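The miR-30 family is a set of microRNAs (miRNAs) made from 6 human genes, and 8 of its mature arms were followed here across 6 human tumour-derived cell lines. The members were chosen by name, namely the 5p arms miR-30a-5p, miR-30b-5p, miR-30c-5p, miR-30d-5p and miR-30e-5p and the 3p arms miR-30a-3p, miR-30d-3p and miR-30e-3p. They are 8 of the 2588 mature miRNAs listed, and all 8 were detected in every library. Small RNA-seq had been performed in parental cells without siRNA, with 2 libraries each for Hep-G2 (liver cancer), A-549 (lung cancer), BE(2)-C (neuroblastoma), MV3 (melanoma) and ES-2 (ovarian cancer) and 1 for PANC-1 (pancreatic cancer). Each line is a single established culture, and the study's methods call the 2 libraries of a line biological replicates. RNA was taken 48 h after seeding, except for BE(2)-C, where the protocol gives 24 h and the sample characteristics give 48 h. Libraries of PANC-1, A-549, MV3 and ES-2 were built from 50 ng total RNA by means of a NEXTflex kit, whereas BE(2)-C and Hep-G2 libraries came from a commercial provider, Novogene. In any comparison between these sets of lines, the line and its preparation cannot be told apart, so tests between single lines were run only among lines with the same preparation. By the protocol, harvest time cannot be told apart from the line in any comparison with BE(2)-C.

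A miRNA gene is transcribed into a hairpin precursor, whose stem gives a 5p and a 3p arm after cleavage by Drosha and Dicer. Usually 1 arm is retained in an Argonaute protein as the guide that pairs with messenger RNAs, mainly through its seed (bases 2 to 8), while the other arm is degraded. In the miR-30 family the 5p arms share a seed and are the usual guides, and the family is known for restraining epithelial-to-mesenchymal transition in epithelial tissues. The 3p arms of miR-30a, miR-30d and miR-30e are retained at lower levels and have another seed.

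The mature sequences of the miR-30a, miR-30c and miR-30e products, taken from RefSeq (GRCh38.p14), are shown to make visible how little separates the members whose levels parted between lines. They run 5′ to 3′ with the seed in capitals.
hsa-miR-30a-5p: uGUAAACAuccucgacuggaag
hsa-miR-30e-5p: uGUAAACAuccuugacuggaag
hsa-miR-30c-5p: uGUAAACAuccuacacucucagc
hsa-miR-30a-3p: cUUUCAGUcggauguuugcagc
hsa-miR-30e-3p: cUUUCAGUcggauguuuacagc
hsa-miR-30c-1-3p: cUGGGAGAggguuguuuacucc
hsa-miR-30c-2-3p: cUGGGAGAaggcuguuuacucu

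That table matched 5 of the 8 members by name, and miR-30b-5p, miR-30d-5p and miR-30d-3p were not matched. The 5p arms printed above had the seed GUAAACA in common, and miR-30a-3p and miR-30e-3p the seed UUUCAGU. Counted from the 5′ end, miR-30a-5p and miR-30e-5p differed by the single change C13U, and their 3p arms by G18A. The first 12 bases of miR-30a-5p and miR-30c-5p were identical. The 3p arms of the 2 miR-30c genes, miR-30c-1-3p and miR-30c-2-3p, differed by G9A, U12C and C22U and can therefore be counted apart, which their common 5p arm cannot. How reads that match several members were assigned is not given in the sources used here, so levels of a rare member next to an abundant one with a single base between them are uncertain.

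The 6 genes lie in 3 pairs. MIR30A (chromosome 6, 71403551 to 71403621, minus strand, GRCh38) sat in an intron of the long non-coding RNA gene LINC00472, and MIR30C2 (chromosome 6, 71376960 to 71377031, minus strand) overlapped an exon of the same gene 26.5 kb away. MIR30E (chromosome 1, 40754355 to 40754446, plus strand) and MIR30C1 (chromosome 1, 40757284 to 40757372, plus strand) lay 2.84 kb apart in introns of NFYC, which encodes a subunit of the transcription factor NF-Y. MIR30B and MIR30D lay 4.27 kb apart in introns of a long non-coding RNA gene on chromosome 8.

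Between 1173902 and 12137452 reads per library were assigned to miRNAs, with a median of 2670030, and levels are given as CPM (reads scaled to a library total of 1000000). A count of 0 would allow 3 reads, which is 0.247 to 2.56 CPM depending on the library and covers counting error only. A few miRNAs took up much of some libraries. In A-549 miR-21-5p held 65.0% and 64.2% of the reads, and in Hep-G2 miR-148a-3p held 75.3% and 72.6%, so that the CPM of every other miRNA in these lines depends on how the library total is set. The orders of lines below are therefore those on CPM, and beside them stands what changed when CPM was divided by TMM factors (scaling factors that trim the most extreme miRNAs), which were 0.166 and 0.217 in Hep-G2 and 1.02 to 1.87 in the other libraries. The neural miRNA miR-9-5p reached 15875 to 17555 CPM in BE(2)-C and at most 7.83 CPM in Hep-G2, whereas the liver miRNA miR-192-5p reached 15552 to 16165 CPM in Hep-G2. Another liver miRNA, miR-194-5p, went the other way, at 219 to 240 CPM in Hep-G2 against 1883 to 1899 CPM in A-549. The hepatocyte-defining miR-122-5p was at only 50.0 to 64.0 CPM in Hep-G2. The melanocyte miRNAs miR-211-5p, miR-509-3p and miR-514a-3p were at 0 in both MV3 libraries. The 2 BE(2)-C libraries stood further apart than those of other lines, with a standard deviation (SD) of a single library of 0.70 on the log2 scale against 0.20 to 0.38. BE(2)-C replicate 1 also held 823 CPM of miR-122-5p and 299 CPM of the erythrocyte miRNA miR-451a, against 5.96 and 46.0 CPM in replicate 2.

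On CPM over all 6 lines the widest span was that of miR-30a-5p, the guide arm of MIR30A. It was the most abundant member in A-549 (30176 and 28345 CPM), ES-2 (48886 and 47275 CPM) and PANC-1 (41376 CPM). In MV3 it was at 14722 and 14463 CPM. BE(2)-C held 524 and 149 CPM, a 3.51-fold difference between replicates, with the higher value in the library that also held miR-122-5p and miR-451a, whose part in this value was not tested. Hep-G2 held only 29.0 and 30.9 CPM. No library of one line overlapped with a library of another, and from ES-2 to Hep-G2 the mean level spanned 1607-fold. With TMM factors this span was 230-fold, less than the 292-fold of miR-30d-3p, and the BE(2)-C libraries (92.4 and 362) enclosed those of Hep-G2 (142 and 174). Among the 4 NEXTflex lines the CPM span of miR-30a-5p was 3.29-fold, below those of miR-30d-3p (37.9-fold, on few reads) and miR-30e-3p (3.98-fold).

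The miR-30a-3p arm followed the same order of lines at lower levels. The 2 libraries of ES-2 held 1647 and 1619.6 CPM, those of A-549 830.3 and 878 CPM and those of MV3 643 and 565 CPM, and PANC-1 held 1529 CPM. Both Novogene lines were far lower, with 32.0 and 16.8 CPM in BE(2)-C and 7.91 and 11.7 CPM in Hep-G2. Neighbouring lines in this order did not overlap, but ES-2 and PANC-1 were only 1.07-fold apart. With TMM factors BE(2)-C (16.3) came below Hep-G2 (50.8).

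In contrast, miR-30d-5p remained abundant in every line. On CPM it was highest in MV3 (21157 and 21665 CPM) and next highest in BE(2)-C (17531 and 17783 CPM). PANC-1 held 12233 CPM, ES-2 12225 and 11689.8 CPM and A-549 9623 and 9036 CPM, while Hep-G2 was lowest with 3865 and 4326 CPM. The lines thus spanned 5.23-fold, and PANC-1 and ES-2 could not be ranked, being 1.02-fold apart with 1 library of PANC-1. The place of Hep-G2 turned with the scaling. With TMM factors it was the highest line for miR-30d-5p, at 21593 against 11581 in MV3 and 11556 in BE(2)-C, PANC-1 was lowest with 6933 and the span was 3.11-fold.

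Its neighbour miR-30b-5p was a minor member everywhere, at 192 ± 1.88 CPM (SD, n = 2) in A-549, 237 ± 24.7 in ES-2, 310.3 ± 45.4 in MV3, 412 ± 249 in BE(2)-C and 57.4 ± 11.9 in Hep-G2, and at 283 CPM in PANC-1. The BE(2)-C libraries, at 236 and 588 CPM, enclosed those of MV3, and the MV3 libraries enclosed PANC-1, so that the upper part of this order was not resolved. On CPM Hep-G2 was below every other line, whereas with TMM factors it was the highest, at 299 against 160 to 263 in the others.

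The miR-30d-3p arm was the rarest member. It was read 4 and 14 times in A-549, 5 and 11 times in ES-2, 16 and 15 times in MV3 and 3 times in PANC-1, which corresponds to 0.308 to 13.6 CPM. On CPM it was highest in BE(2)-C, with 43.6 and 50.9 CPM, followed by MV3 (mean 11.7 CPM) and by Hep-G2 with 9.85 and 9.23 CPM. The MV3 libraries overlapped with those of Hep-G2, and those of A-549 with those of ES-2. With TMM factors Hep-G2 (50.9) was above BE(2)-C (30.8).

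For miR-30c-5p, the arm shared by MIR30C1 and MIR30C2, PANC-1 was highest with 8169 CPM, followed by ES-2 (6427 ± 274 CPM, n = 2), A-549 (3627 ± 132 CPM), MV3 (2877 ± 306 CPM), BE(2)-C (528 ± 289.97 CPM) and Hep-G2 (184 ± 38.0 CPM). No neighbouring lines overlapped, although the BE(2)-C libraries held 323 and 733 CPM. The span between lines was 44.3-fold on CPM. With TMM factors it was 14.4-fold, with ES-2 (4865) above PANC-1 (4629) and BE(2)-C (339) below Hep-G2 (960).

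On CPM the 2 arms of MIR30E ran in opposite directions in Hep-G2. The 5p arm, miR-30e-5p, was highest in PANC-1 (4832 CPM) and ES-2 (3529 and 3478 CPM), intermediate in MV3 (2552 and 2823 CPM) and A-549 (1657 and 1540.3 CPM), and lowest in BE(2)-C (778 and 1167 CPM) and Hep-G2 (251 and 309 CPM). The 3p arm, miR-30e-3p, was highest in Hep-G2 with 759 and 782 CPM. PANC-1 held 492 CPM, BE(2)-C 491 and 410.2 CPM, MV3 343 and 373 CPM, ES-2 277 and 247 CPM and A-549 125 and 122 CPM. It was the single member with its highest CPM in Hep-G2 and the lowest in A-549. Neighbouring lines did not overlap, although PANC-1 and BE(2)-C replicate 1 were nearly equal. With TMM factors Hep-G2 again held most miR-30e-3p and A-549 least (4084 against 117), but miR-30e-5p was lowest in BE(2)-C (630) and Hep-G2 (1467) was level with MV3 (1453).

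**Figure D1:**
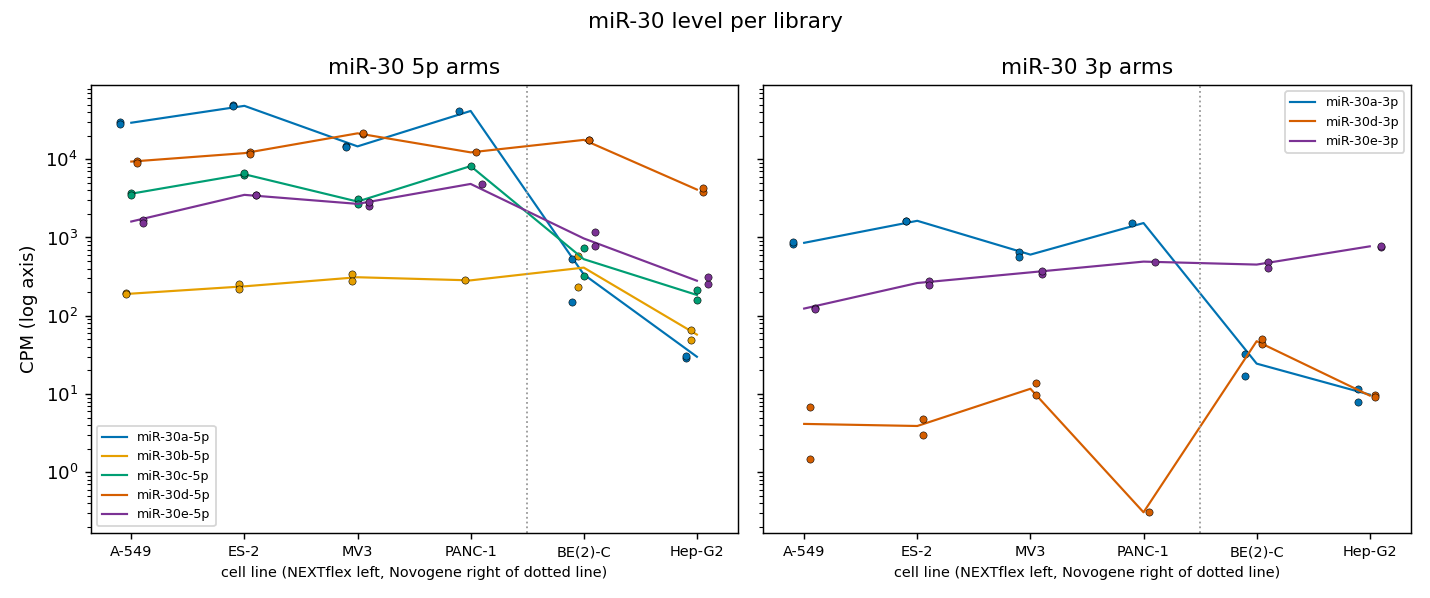
CPM of each miR-30 member (log axis) in the 6 cell lines, 5p arms on the left and 3p arms on the right; points are libraries and lines join the line means for orientation only. Libraries left of the dotted line were made with the NEXTflex kit. On this scale miR-30a-5p falls from 48080.2 CPM in ES-2 to 29.9 CPM in Hep-G2, whereas miR-30e-3p is highest in Hep-G2 with 770.3 CPM.

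Within a library, the composition of the family does not depend on how libraries are scaled. Among the summed reads of the 5 5p arms, miR-30a-5p held 66.5% ± 0.0317 in A-549 (SD, n = 2), 68.5% ± 0.350 in ES-2 and 61.9% in PANC-1. In MV3 its share was 34.8% ± 0.451, and miR-30d-5p led with 51.1% ± 0.838. In BE(2)-C miR-30d-5p held 88.7% ± 2.34 and in Hep-G2 88.2% ± 0.925, while miR-30a-5p made up 1.72% ± 1.39 and 0.645% ± 0.0286. Per read of miR-30d-5p there were 3.14 and 3.14 reads of miR-30a-5p in the A-549 libraries and up to 4.04 in those of ES-2, but 0.00749 and 0.00714 in those of Hep-G2. The shares of miR-30e-5p were more even, between 3.63% ± 0.0291 in A-549 and 7.22% in PANC-1.

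The 3p arms were split in a similar manner. miR-30a-3p made up 87.0% ± 0.270 of the summed 3p reads in A-549, 86.0% ± 0.780 in ES-2, 75.7% in PANC-1 and 62.0% ± 3.33 in MV3. In BE(2)-C and Hep-G2 the leading 3p arm was miR-30e-3p, with 86.2% ± 0.574 and 97.6% ± 0.226. miR-30d-3p reached 9.18% ± 2.09 in BE(2)-C and stayed at 1.21% or less in the other lines. The MV3 libraries thus stood between the other NEXTflex lines and the Novogene lines for both arms. These shares were not tested across the preparations.

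**Figure D2:**
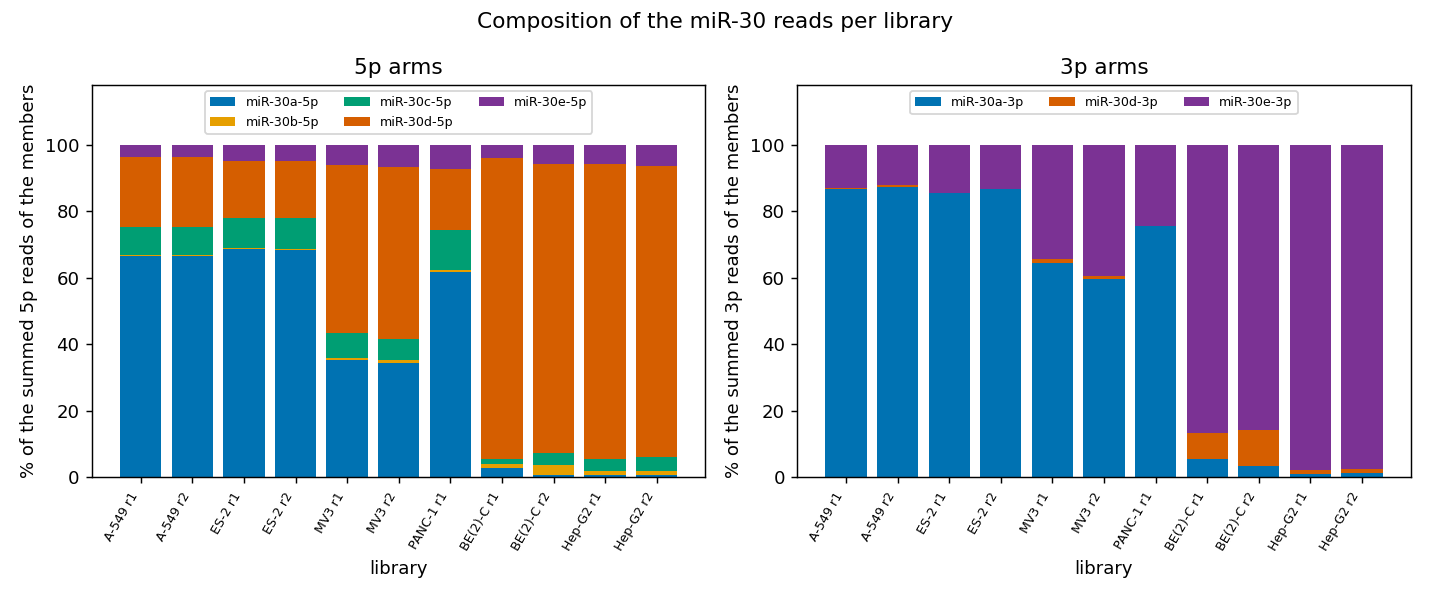
Stacked bars of the share of each member (%) among the summed 5p reads (left) and 3p reads (right) of the family, 1 bar per library (r1 and r2 are replicates 1 and 2). miR-30a leads both arms in A-549, ES-2 and PANC-1, and in BE(2)-C and Hep-G2 miR-30d-5p and miR-30e-3p make up over 85% of their arm.

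The question of whether levels differed between lines was put to all 546 miRNAs that reached a line mean of 10 CPM in at least 1 line, by limma on log2(CPM + 1) with Benjamini-Hochberg adjustment. Fold changes on this scale understate the change of rare arms such as miR-30d-3p. All 8 members passed the filter, and all 8 differed across the 6 lines (adjusted p between 6.42e-07 for miR-30a-3p and 0.00243 for miR-30b-5p). This distinguishes them little, as 99.3% of the tested miRNAs did so. The call of miR-30b-5p was lost with TMM factors (adjusted p 0.206), with the most abundant miRNA of each line left out of the totals (0.122) and in edgeR with TMM factors (0.209). Across the 4 NEXTflex lines, 8 of 8 members differed again, against 85.4% of 453 tested miRNAs. Here miR-30a-5p had the lowest adjusted p (5.58e-05), and miR-30b-5p (0.0292) and miR-30d-3p (0.0490) were near the threshold. miR-30d-3p passed the filter of this test only through MV3 (mean 11.7 CPM, against 0.308 to 4.15 in the other NEXTflex lines). Its call thus rests on the line that admitted it, and without MV3 replicate 1 it was not tested. With TMM factors, in edgeR with TMM factors, in DESeq2 and without a filter on low values only 6 members were called. These settings lost miR-30b-5p (adjusted p 0.0793 to 0.806) and miR-30d-3p (0.0502 to 0.139). Without the filter more miRNAs were tested and a smaller share of all of them was called, so that loss is no result about these members alone. miR-30d-3p alone was lost with the most abundant miRNA left out (0.0618), with the deposited values (0.0512) and with the replicate number as a block (0.0869). Without either library of ES-2 or MV3 replicate 1, 6 members remained past it, and 7 did without either library of A-549 or MV3 replicate 2. miR-30b-5p was lost without any single library of A-549 or ES-2 or MV3 replicate 1 (adjusted p 0.0514 to 0.129), and miR-30d-3p without either library of ES-2 or MV3 replicate 2 (0.107 to 0.126).

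Between ES-2 and MV3 the calls on CPM parted miR-30a-5p, miR-30a-3p and miR-30c-5p from miR-30d-5p. In this comparison 4 of 8 members were called, where 32.8% of all tested miRNAs were. Of these, 3 were higher in ES-2, a direction in which 8.97% of all tested miRNAs were called, and 1 was higher in MV3, where 23.8% were called higher. miR-30a-5p was higher in ES-2 by 1.72 on the log2 scale (standard error (SE) 0.48, adjusted p 0.0299), miR-30a-3p by 1.44 (SE 0.30, adjusted p 0.00867) and miR-30c-5p by 1.16 (SE 0.35, adjusted p 0.0400). miR-30d-5p was lower in ES-2 by 0.84 (difference -0.84, SE 0.13, adjusted p 0.00199). The direction of these 4 differences was the same under all 5 scalings compared, between 1.62 and 2.20 for miR-30a-5p and between -0.94 and -0.36 for miR-30d-5p. Of the 5, the deposited values gave nearly the same differences as CPM and are not a separate check. Not all of the calls were kept. miR-30d-5p was lost with TMM factors (-0.36, adjusted p 0.143) and miR-30c-5p with the most abundant miRNA left out (1.06, adjusted p 0.0597). miR-30e-5p was called higher in ES-2 with TMM factors (0.87, adjusted p 0.00893) and in DESeq2. miR-30e-3p was called higher in MV3 with the most abundant miRNA left out (-0.56, adjusted p 0.0265), but was at 0.03 with TMM factors. In a limma fit of the NEXTflex libraries alone, miR-30e-5p (0.38, adjusted p 0.0126) and miR-30e-3p (-0.45, adjusted p 0.0218) were both called, in opposite directions. The median over all tested miRNAs was -0.36, and 27.4% of all calls were higher in ES-2 on CPM against 47.3% with TMM factors. Relative to that median on CPM, miR-30a-5p stood at 2.08 and miR-30d-5p at -0.48. The other members had differences of -0.38 (miR-30b-5p), -1.38 (miR-30d-3p), 0.38 (miR-30e-5p) and -0.45 (miR-30e-3p) and did not pass the test on CPM in the fit of all libraries. Leaving out any library of ES-2, MV3 or Hep-G2 reduced the count to 2 (1 without MV3 replicate 2), and any library of A-549 to 3. The calls of miR-30a-5p and miR-30c-5p were lost in each of these cases (adjusted p 0.0546 to 0.166). Leaving out either BE(2)-C library raised it to 6, since the spread of BE(2)-C enters the error of every contrast.

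Between A-549 and MV3 the members that passed the test depended on the scaling. On CPM again 4 of 8 members were called (57.3% of all tested miRNAs), none of them higher in A-549 (20.0%) and all 4 higher in MV3 (37.4%). The differences, A-549 minus MV3, were -1.20 for miR-30d-5p (SE 0.13, adjusted p 0.000156), -1.53 for miR-30e-3p (SE 0.16, adjusted p 0.000129), -0.75 for miR-30e-5p (SE 0.21, adjusted p 0.0177) and -1.50 for miR-30d-3p (SE 0.54, adjusted p 0.0445). With TMM factors and with the most abundant miRNA left out, the split was 3 called higher in A-549 and 1 higher in MV3, and in DESeq2 it was 4 and 0. The 3 were miR-30a-5p, miR-30a-3p and miR-30c-5p, with adjusted p of 0.0239, 0.00982 and 0.0164 with TMM factors. The values of miR-30d-5p, miR-30d-3p and miR-30e-3p were below 0 under all 5 scalings but shrank. miR-30d-5p was at -0.40 with TMM factors (adjusted p 0.0732), at -0.27 with the most abundant miRNA left out (0.0919) and at -0.12 in DESeq2 (0.602), and thus was called under 2 of the 5. miR-30d-3p was also called under 2, being at -0.46 in DESeq2 (adjusted p 0.670). For both arms these 2 were CPM and the deposited values, whose differences were nearly the same. miR-30e-3p was called under 4, with -0.46 in DESeq2 (adjusted p 0.162). miR-30e-5p turned to 0.05 with TMM factors, to 0.18 without the most abundant miRNA of each line and to 0.33 in DESeq2, where it was called (adjusted p 0.0302). On CPM miR-30a-5p differed by 1.00 (SE 0.48, adjusted p 0.116), and this difference lay between 1.00 and 2.08 over the scalings. The median of all tested miRNAs was -0.47, and 34.8% of all calls were higher in A-549 on CPM against 56.1% with TMM factors and 68.0% in DESeq2. Of all tested miRNAs, 48.0% were called with TMM factors, 46.3% with the most abundant miRNA left out and 41.8% in DESeq2. In a fit of the NEXTflex libraries alone, 7 members were called, with miR-30a-5p higher in A-549 (adjusted p 0.000109) and miR-30d-3p lost (0.0909). That fit leaves out the spread of BE(2)-C, and no share over all tested miRNAs is given for it here. Its count is therefore no result about the members alone. Without A-549 replicate 1 or either library of MV3, 2 members remained. The call of miR-30d-3p was lost without any 1 library of ES-2, MV3, BE(2)-C or Hep-G2 or A-549 replicate 1 (adjusted p 0.0590 to 0.201), and that of miR-30e-5p without any library of A-549 or MV3 (0.0531 to 0.0924).

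Between A-549 and ES-2 the members differed in 1 direction on the CPM scale, but this depended on the library total. The count was 4 of 8 (50.5% of all tested miRNAs), 0 higher in A-549 (23.6%) and 4 higher in ES-2 (26.9%). On CPM, A-549 minus ES-2, miR-30e-5p differed by -1.13 (SE 0.21, adjusted p 0.00284), miR-30e-3p by -1.08 (SE 0.16, adjusted p 0.000706), miR-30a-3p by -0.93 (SE 0.30, adjusted p 0.0356) and miR-30d-5p by -0.36 (SE 0.13, adjusted p 0.0479). The values of both miR-30e arms were below 0 under all 5 scalings, but with miR-21-5p, the leading miRNA of both lines, left out of the totals they were -0.10 for miR-30e-5p (adjusted p 0.756) and -0.05 for miR-30e-3p (adjusted p 0.837). In DESeq2 miR-30e-3p was at -0.43 and not called (adjusted p 0.188). With TMM factors the calls of miR-30a-3p (adjusted p 0.139) and miR-30d-5p (0.877) were lost. When miR-21-5p was left out, miR-30d-5p turned to 0.67 and was called in that direction (adjusted p 0.00215), and miR-30a-3p turned to 0.10. The median of all tested miRNAs moved from -0.17 to 0.62 and the share of calls higher in A-549 from 46.7% to 74.8%. On CPM miR-30a-5p (-0.72, adjusted p 0.254) and miR-30c-5p (-0.83, adjusted p 0.0882) were not called. Both were called in a limma fit of the NEXTflex libraries alone (adjusted p 0.000308 and 0.00115), which was chosen after seeing the data. With miR-21-5p left out they turned to 0.31 and 0.21 and were not called. The calls of miR-30a-3p and miR-30d-5p were lost without any single library of A-549, ES-2 or MV3, which left 2, and that of miR-30d-5p also without either library of Hep-G2 (adjusted p 0.0582 to 0.205). In contrast, 6 were called without either library of BE(2)-C.

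BE(2)-C and Hep-G2, which share the Novogene preparation, differed for 8 of 8 members, where 83.0% of all tested miRNAs were called. By the protocol BE(2)-C was harvested at 24 h and Hep-G2 at 48 h, so line and harvest time cannot be told apart here. The sample characteristics give 48 h for both. On CPM, 7 members were called higher in BE(2)-C, as were 74.7% of all tested miRNAs, and 1 was called higher in Hep-G2, as were 8.24%. With TMM factors, and likewise in DESeq2, the split was 0 called higher in BE(2)-C and 5 higher in Hep-G2. Under these settings 64.3% and 59.2% of all tested miRNAs were called. On CPM the largest difference was that of miR-30a-5p with 3.18 (SE 0.48, adjusted p 0.000408), followed among the abundant arms by miR-30d-5p with 2.11 (SE 0.13, adjusted p 1.68e-06). The exception was miR-30e-3p with -0.78 (SE 0.16, adjusted p 0.00197). Only the directions of miR-30a-5p and miR-30e-3p were the same under all 5 scalings, with 0.22 to 3.18 for miR-30a-5p and -3.91 to -0.78 for miR-30e-3p. miR-30e-3p was called under all 5, whereas the call of miR-30a-5p was lost with TMM factors (0.22, adjusted p 0.754) and in DESeq2 (0.45, adjusted p 0.552). The median of all tested miRNAs was 2.79 on CPM and 0.49 with TMM factors. Of all calls, 90.1% were higher in BE(2)-C on CPM and 64.4% with TMM factors. Relative to that median, miR-30e-3p stood at -3.57 on CPM and at -4.27 with TMM factors, miR-30c-5p at -1.38 and -2.08 and miR-30a-5p at 0.39 and -0.27. With TMM factors 4 differences reversed and passed the test, namely those of miR-30d-5p (-0.90, adjusted p 0.00122), miR-30e-5p (-1.23, adjusted p 0.000409), miR-30a-3p (-1.67, adjusted p 0.00160) and miR-30c-5p (-1.59, adjusted p 0.00190). Without BE(2)-C replicate 1 the difference of miR-30a-5p was 2.28 and without replicate 2 it was 4.09, and the call of miR-30a-3p was lost without Hep-G2 replicate 1 (adjusted p 0.0525).

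The ratio of the 5p to the 3p arm of a hairpin is free of the scaling, since both arms are read in the same library. For miR-30a it was 36.3 and 32.3 in A-549, 29.7 and 29.2 in ES-2, 22.9 and 25.6 in MV3 and 27.1 in PANC-1. It was lower in BE(2)-C (16.4 and 8.87) and lowest in Hep-G2 (3.66 and 2.64), with no overlap between the NEXTflex and the Novogene lines. In Hep-G2 it rested on 94 and 142 reads of miR-30a-3p, beside 9014 and 9490 reads of miR-30e-3p, which is 1 base apart. Whether reads of miR-30e-3p entered the count of miR-30a-3p was not tested. The 5p arm of miR-30a led in every library.

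miR-30e was the pair in which the leading arm changed. There were 13.3 and 12.6 5p reads per 3p read in A-549, 12.7 and 14.1 in ES-2, 7.43 and 7.57 in MV3 and 9.83 in PANC-1. The ratio was 1.59 and 2.84 in BE(2)-C, and in Hep-G2 it was 0.331 and 0.395, so that the 3p arm, usually the lesser one, was read 9014 and 9490 times against 2981 and 3753 times for the 5p arm. The 5p arm held 24.9% and 28.3% of the miR-30e reads in Hep-G2 and at least 88.1% in each NEXTflex library.

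miR-30d was almost entirely read from its 5p arm, with 402 and 349 5p reads per 3p read in BE(2)-C and 392 and 469 in Hep-G2. In the NEXTflex lines the ratio was 1330 or more, but rested on 3 to 16 reads of the 3p arm. In PANC-1, 3 such reads gave a ratio of 39746 with an exact 95% interval of 13600 to 192733, which covers counting error only. Its spread between replicates was accordingly wide, with 6424 and 1330 in A-549. The 5p to 3p ratio of the 3 hairpins together was 41.0 ± 3.33 in A-549 (SD, n = 2), 33.5 ± 0.121 in ES-2, 39.8 ± 1.90 in MV3, 36.6 ± 4.74 in BE(2)-C and 28.9 in PANC-1, but 5.58 ± 0.335 in Hep-G2.

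**Figure D3:**
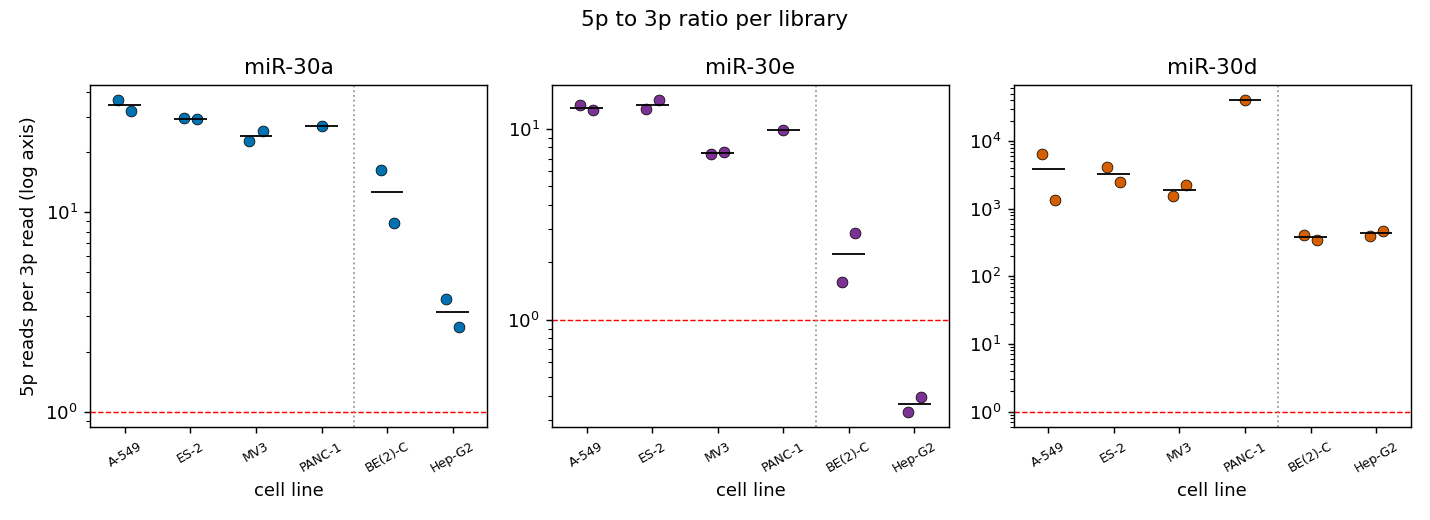
Reads of the 5p arm per read of the 3p arm (log axis, separate range in each panel) of miR-30a, miR-30e and miR-30d in the 6 cell lines; points are libraries, bars are line means, the red dashed line marks equal reads of both arms and the dotted line separates the preparations. The 2 Hep-G2 libraries of miR-30e, at 0.331 and 0.395, are the ones below equality.

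Arm ratios were tested with limma on the log2 ratio over all 283 pairs of arms with the same name stem. All 3 miR-30 pairs differed across the 6 lines (adjusted p 0.000715 for miR-30a, 0.00162 for miR-30d and 0.000117 for miR-30e), as did 74.6% of all pairs. Across the 4 NEXTflex lines 1 of 3 was called, miR-30e with an adjusted p of 0.0495, against 24.4% of 254 pairs. That call was lost when any single library of A-549, ES-2 or MV3 was left out (adjusted p 0.0601 to 0.184), and without A-549 replicate 1 miR-30d was called instead (0.0472). In edgeR miR-30e was not called (adjusted p 0.248), but miR-30d was (3.44e-06), whose 3p arm was read 3 to 16 times in these lines.

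Between BE(2)-C and Hep-G2, which by the protocol also differed in harvest time, 2 of 3 miR-30 pairs were called, against 35.0% of all pairs. In both the ratio was higher in BE(2)-C, a direction in which 15.5% of all pairs were called. The 5p to 3p ratio was higher in BE(2)-C by 1.95 on the log2 scale for miR-30a (SE 0.34, adjusted p 0.00511) and by 2.55 for miR-30e (SE 0.33, adjusted p 0.00158), while the median over all pairs was -0.07. The value of miR-30a carries the limit given above on its 3p reads in Hep-G2. For miR-30d the difference was -0.19 (SE 0.63, adjusted p 0.842). Both calls held without each single library of the 2 lines (adjusted p up to 0.0455 for miR-30a and 0.0141 for miR-30e), but in a fit of the 4 Novogene libraries alone miR-30a had an adjusted p of 0.0532. The leading arm differed between BE(2)-C and Hep-G2 in 51 of the 283 pairs, 30 of which were called, miR-30e among them. Within the NEXTflex lines none of the 3 pairs was called by limma between A-549 and ES-2 (9.89% of all pairs), A-549 and MV3 (8.13%) or ES-2 and MV3 (7.77%), nor by edgeR. At an unadjusted p under 0.05, 0, 1 and 1 of the 3 pairs passed, each time miR-30e, whose ratio was lower in MV3 (A-549 minus MV3 0.79, SE 0.33; ES-2 minus MV3 0.84, SE 0.33). Both differences were called when either library of BE(2)-C was left out (adjusted p 0.0401 to 0.0499).

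The origin of the miR-30c 3p reads could be followed, since the 3p arms of its genes can be counted apart. These 3p arms are not among the 8 members. Whether their shares also hold for miR-30c-5p was not tested, since the ratio of the arms may differ between the genes and between lines. In the 7 NEXTflex libraries 92.7% to 100% of the miR-30c 3p reads were miR-30c-2-3p, the product of the chromosome 6 gene beside MIR30A. In BE(2)-C the share was 20.6% and 5.85%, with 26 and 10 reads of miR-30c-2-3p against 100 and 161 of miR-30c-1-3p, and in Hep-G2 4.17% and 12.1%, with only 1 and 4 reads against 23 and 29. The level of miR-30c-2-3p was 141 and 125 CPM in A-549, 201 ± 8.48 in ES-2, 145 ± 21.0 in MV3 and 153 in PANC-1, against 2.49 ± 1.36 in BE(2)-C and 0.207 ± 0.174 in Hep-G2, which is at or under 3 reads in 1 of its libraries. miR-30c-1-3p, from the gene beside MIR30E, was at 19.0 ± 8.01 CPM in BE(2)-C and at 7.29 ± 4.29 CPM or less elsewhere. The deposited rows for the chromosome 1 and the chromosome 6 copy of miR-30c-5p held nearly equal reads in every library (ratio 0.972 to 1.09) and thus did not separate the genes.

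The same split was seen between miR-30a and miR-30e, which differ by a single base in each arm. Of the reads of miR-30a-5p and miR-30e-5p together, miR-30a-5p held 83.7% to 94.8% in the NEXTflex libraries, 40.2% and 11.3% in BE(2)-C and 10.3% and 9.08% in Hep-G2. Of the reads of their 3p arms, miR-30a-3p held 60.2% to 87.8% in the NEXTflex libraries, 6.13% and 3.94% in BE(2)-C and 1.03% and 1.47% in Hep-G2. For each of these shares, every NEXTflex library was above every Novogene library. Since all NEXTflex lines lie on one side, a part of the preparation in this split cannot be told apart from that of the line.

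**Figure D4:**
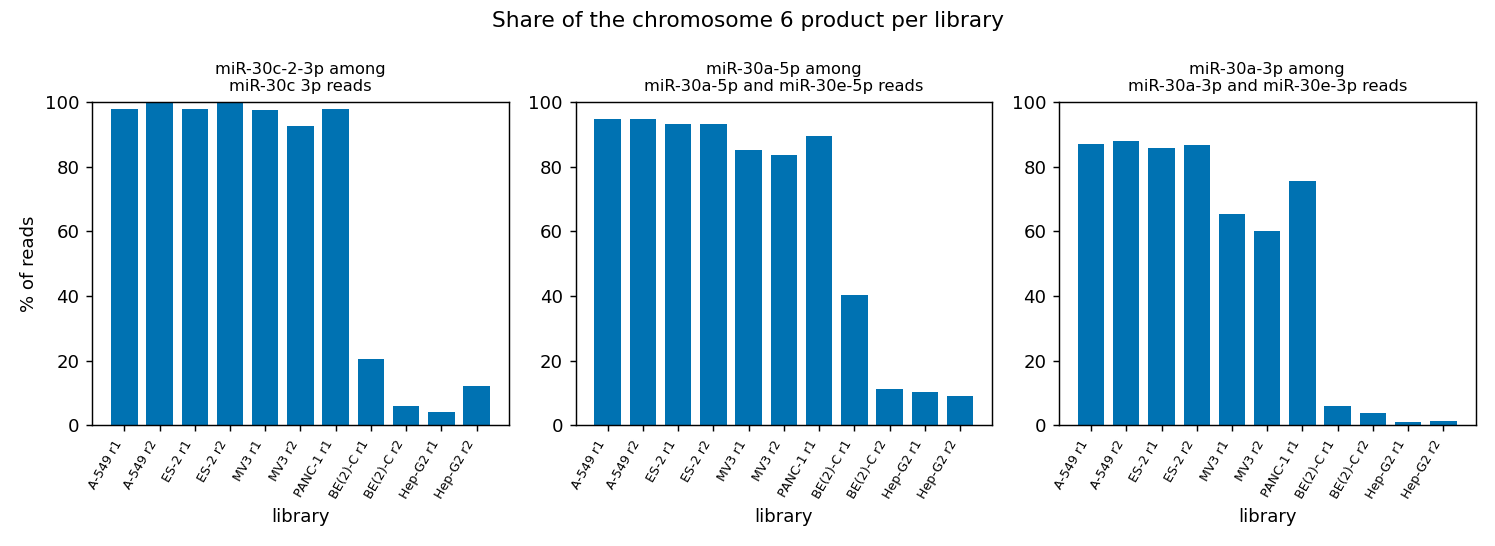
Share (%) of the chromosome 6 product in each library, from left to right miR-30c-2-3p among the miR-30c 3p reads, miR-30a-5p among miR-30a-5p and miR-30e-5p reads, and miR-30a-3p among miR-30a-3p and miR-30e-3p reads; r1 and r2 are replicates 1 and 2. The 7 NEXTflex libraries on the left of each panel lie at 60.2% or more, and the 4 BE(2)-C and Hep-G2 libraries at 40.2% or less.

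How far 2 members kept a fixed ratio across lines was described by the SD of their log2 ratio over the 6 line means, with no test. Of the 28 pairs of members, miR-30b-5p and miR-30d-5p had the steadiest ratio with an SD of 0.31. There were between 30.3 and 78.9 reads of miR-30d-5p per read of miR-30b-5p in the 11 libraries, both extremes coming from Novogene libraries. Next were miR-30c-5p and miR-30e-5p (0.87) and miR-30b-5p and miR-30e-5p (1.02). The arms of one hairpin kept their ratio less well than these pairs, with 1.31 for miR-30a, 2.05 for miR-30e and 2.37 for miR-30d. Still, among the members miR-30a-5p kept its steadiest ratio with its own 3p arm, followed by miR-30c-5p (2.34). The widest spread was that between miR-30a-5p and miR-30d-3p with 6.21. Values with miR-30d-3p lean on few reads, such as 3 in PANC-1. miR-30a-5p and miR-30e-5p, 1 base apart in sequence, had an SD of 3.12.

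**Figure D5:**
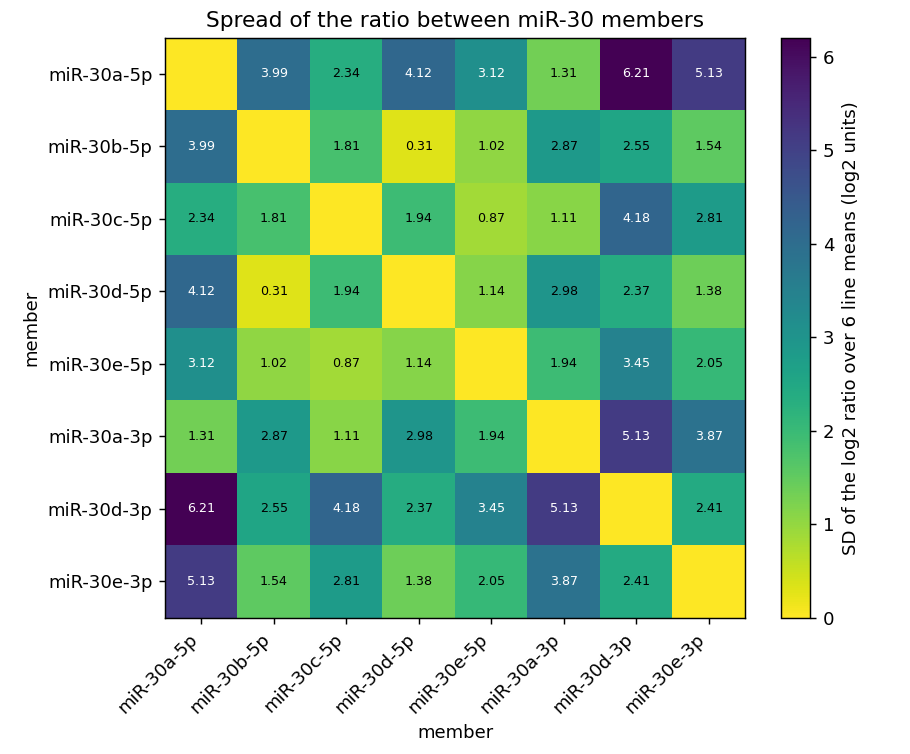
SD of the log2 ratio between each pair of the 8 members over the 6 line means, in log2 units; low values (yellow) mean a steady ratio and the diagonal is 0 by construction. miR-30b-5p and miR-30d-5p have the lowest value (0.31), and miR-30a-5p and miR-30d-3p the highest (6.21).

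Among the other tested miRNAs, those most like a member by the same measure were named, again as a description over 6 line means that share libraries, depth and preparation. For miR-30d-5p they were miR-103a-3p (SD 0.24), miR-130b-3p (0.29) and miR-769-5p (0.43), where the median over 535 miRNAs compared was 2.68. For miR-30b-5p they were miR-769-5p (0.27), miR-107 (0.29) and miR-339-3p (0.30). For miR-30c-5p the closest was let-7f-5p (0.40), followed at 0.45 by let-7g-5p and at 0.58 by miR-942-5p. miR-30e-5p was most like miR-374b-5p (0.44), miR-423-3p (0.47) and miR-423-5p (0.47), and miR-30e-3p most like miR-128-3p (0.59), miR-148b-3p (0.64) and miR-185-5p (0.67). For the miR-30a arms and miR-30d-3p the nearest miRNAs had larger SDs. The medians of these members (4.59 for miR-30a-5p, 3.68 for miR-30a-3p and 3.59 for miR-30d-3p) were also larger than those of the others. The nearest to miR-30a-5p were let-7d-5p (0.86), miR-98-5p (0.94) and miR-151a-5p (1.18), against a median of 4.59, and to miR-30a-3p miR-1180-5p (0.79), miR-98-3p (0.86) and miR-6803-3p (0.91). For miR-30d-3p, miR-6515-3p (0.74), miR-6866-5p (0.79) and miR-1287-5p (0.90) were nearest, with few reads in the NEXTflex lines.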

How the data were processed

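Small RNA-seq libraries of 6 parental cell lines were analysed (n = 2 per line, n = 1 for PANC-1). The submitters' processing notes name cutadapt 1.14, Bowtie2 2.3.2, SAMtools 1.5, featureCounts 1.5.3, edgeR 3.30.3 and hg38; their use for small RNA reads is not given further in the sources used here. The authors deposited CPM for PANC-1 and, for the other 5 lines, a scaled signal (CPM over a TMM factor that was computed table by table). The deposited nonzero values were all (100%) whole multiples of the smallest one within a tolerance of 1e-06, so whole reads were recovered, the rows of a name were summed and CPM recomputed per library. The members' 8 names filled 9 of 2813 rows.

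Levels were tested with limma 3.58.1 (R 4.3.3, eBayes with trend, two-sided) on log2(CPM + 1), for miRNAs whose mean reached 10 CPM in 1 line or more, with cell line as the only factor, in a fit of all 11 libraries, which share one estimate of the spread. Arm ratios were tested on log2((5p reads + 0.5)/(3p reads + 0.5)) for pairs whose arms together reached 10 CPM. Adjusted p (Benjamini-Hochberg) below 0.05 was called. P-values measure the spread between libraries of a line. Alternatives used edgeR 4.0.16 and DESeq2 1.42.0 on the recovered reads, TMM factors, other totals, filters and pseudocounts, single libraries left out and, chosen after seeing the data, fits within a preparation. The 5 scalings compared were CPM, TMM factors, totals without each line's most abundant miRNA, DESeq2 and the deposited values. Since the deposited values were scaled table by table, their differences between lines were nearly those on CPM, and the 2 are not separate checks. Scripts were tested on simulated data.

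Members and lists were chosen with earlier results of these data known. All members were named, as were the other products of their genes and, for each member, the 3 miRNAs with the lowest SD of the log2 ratio over line means. Locations are from GENCODE v44, sequences from RefSeq (GRCh38.p14). Sequences were matched by name for 5 of the 8 members. Figures were drawn with matplotlib 3.10.9.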

Additional observations from a re-analysis of the deposited data

How the results depend on the processing

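The deposited values, a pseudocount of 5 CPM, the first genomic copy and edgeR with plain library sizes changed no count of called members by more than 1.5 times. Over all pairwise level differences of members, 245 of 352 values under another setting kept direction and call, 37 lost the call, 24 gained it and 46 reversed. For arm ratios 71 of 72 kept both and 1 lost the call. These tallies cannot be compared, since arm ratios were tried under fewer settings and under no other scaling. Pairs of arms were called only between BE(2)-C and Hep-G2 (2 of 3), so most kept values were of pairs not called. Tests across lines and left-out libraries are not counted in either tally. Scaling and filters moved counts, and the share of all tested miRNAs called also changed. For A-549 against ES-2 that share was 50.5% on CPM, 47.3% with TMM factors, 48.7% with the most abundant miRNA left out and 42.1% in DESeq2. For BE(2)-C against Hep-G2 it was 83.0%, 64.3%, 69.2% and 59.2% in the same order. Without a filter more miRNAs were tested, and for A-549 against ES-2 a smaller share was called. Counts without such a share beside them are no result about the members alone. For A-549 against ES-2 the 4 called members became 2 with TMM factors, 1 with each line's most abundant miRNA left out of the totals, 2 without a filter on low values, 2 in edgeR with TMM factors and 1 in DESeq2 (2 to 6 when a library was left out). For A-549 against MV3 the 4 became 2 without a filter and 7 in the fit of the same preparation (2 to 5 when a library was left out), and for ES-2 against MV3 2 without a filter (1 to 6 when a library was left out). For BE(2)-C against Hep-G2 the 8 became 5 with TMM factors, 3 with the most abundant miRNA left out, 5 in edgeR with TMM factors and 5 in DESeq2 (7 to 8 when a library was left out). Of the arm pairs, the 1 called across NEXTflex lines became 2 with a pseudocount of 5 reads and 0 without a filter (0 to 1 when a library was left out). The count between BE(2)-C and Hep-G2 fell from 2 to 1 in the fit of the same preparation. Arm counts of 0 for A-549 against MV3 and ES-2 against MV3 became 0 to 1 when a library was left out.

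Replicate numbers did not pair the libraries (correlation of deviations -0.053 to 0.109 over 10 pairs of lines, 1 of them over 0.1). With the replicate number as a block, A-549 against ES-2 had 2 called members and the arm pairs across NEXTflex lines 0.

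Directions turned with the scaling. For BE(2)-C against Hep-G2, TMM factors gave -1.67 for miR-30a-3p, -0.29 for miR-30b-5p, -1.59 for miR-30c-5p, -0.90 for miR-30d-5p, -0.69 for miR-30d-3p and -1.23 for miR-30e-5p. In the same order edgeR with TMM factors gave -1.88, -0.41, -1.73, -1.14, -0.96 and -1.45, and DESeq2 -1.76, -0.39, -1.70, -1.04, -0.86 and -1.39. Without the most abundant miRNA, miR-30a-3p was at -0.45 and miR-30c-5p at -0.32. For A-549 against ES-2, that setting gave 0.31 for miR-30a-5p, 0.10 for miR-30a-3p, 0.72 for miR-30b-5p, 0.21 for miR-30c-5p, 0.67 for miR-30d-5p and 0.71 for miR-30d-3p. TMM factors gave 0.0097 for miR-30b-5p and 0.11 for miR-30d-3p, DESeq2 0.34 for miR-30b-5p, 0.29 for miR-30d-5p and 0.66 for miR-30d-3p, and miR-30d-3p was at 0.25 in edgeR with TMM factors. It was also at 0.0049 in edgeR with plain library sizes, which use the same totals as CPM, and the cause was not tested. For A-549 against MV3, miR-30b-5p was at 0.11 (TMM factors), 0.24 (most abundant left out), 0.095 (edgeR with TMM factors) and 0.38 (DESeq2), and miR-30e-5p at 0.052, 0.18, 0.046 and 0.33. For ES-2 against MV3, miR-30b-5p was at 0.10, 0.14 (edgeR with TMM factors) and 0.037 (DESeq2) and miR-30e-3p at 0.032 and 0.080 (edgeR with TMM factors). None of these reversed values in A-549 against ES-2, A-549 against MV3 or ES-2 against MV3 was called, except miR-30d-5p without the most abundant miRNA and miR-30e-5p in DESeq2.

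With single libraries left out, 4 differences changed sign, none of them called, at 6 values in all. Over all left-out libraries the arm ratio of miR-30d lay between -0.49 and 1.66 in A-549 against MV3 and between -1.19 and 0.96 in A-549 against ES-2. In A-549 against ES-2 the arm ratio of miR-30e lay between -0.13 and 0.022 and the level of miR-30d-3p between -0.95 and 0.69. Depth limits miR-30d-3p in the NEXTflex lines, read 3 to 16 times.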
